A study of Rattus norvegicus with 6 samples.

Results

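Delta cells are the somatostatin-producing endocrine cells of the pancreatic islet. They were chosen by their measured hormone transcripts. A barcode was a delta cell when Sst, the somatostatin gene, took at least 1% of its UMIs (unique molecular identifiers, each standing for 1 captured transcript) and exceeded each of Gcg (glucagon), Ins1 plus Ins2 (insulin) and Ppy plus Pyy (pancreatic polypeptide and peptide YY), and when it held no UMI of Ptprc, the pan-leukocyte gene. The rule found 51 delta cells among 75981 barcodes kept of 78024 deposited, or 0.0671% of those kept. Alpha, beta and PP cells chosen in the same way, each by its own leading hormone, numbered 1864, 7045 and 1218, so delta cells made up 0.501% of 10178 hormone-defined islet cells.

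The cells came from the pancreases of 6 male Wistar rats, profiled by 10x Genomics 3' single-cell RNA sequencing. The 2 young rats were 2 months old and on a normal diet, the 2 old rats had stayed on that diet from 2 to 20 months of age, and the 2 HFHF-old rats had received a high-fat high-fructose (HFHF) diet over the same time. The preparation was enriched for islets by collagenase P and a density gradient, and the yield of islet cells differed widely, from 8 in HFHF-old replicate 2 to 3370 in young replicate 2. Young replicate 1 gave 23 delta cells, young replicate 2 gave 10, old replicate 1 gave 6, old replicate 2 gave 8, HFHF-old replicate 1 gave 4 and HFHF-old replicate 2 gave 0. The delta cells of the first 5 of these rats held 53865 to 320097 UMIs in sum. Further on, a series of 5 values follows this same order of rats, with the 2 young rats first and HFHF-old replicate 1 last.

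Somatostatin acts over short distances within the islet, where it restrains the release of both insulin and glucagon through inhibitory G protein-coupled receptors. The transcription factor Hhex is needed for delta cells to form and to keep somatostatin switched on. Transcription of Sst responds to cyclic AMP through the palindrome TGACGTCA, the cyclic AMP response element, which the factor CREB binds.

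The promoter of Sst is shown because its transcript defines these cells, and that of Cartpt, which encodes the peptide CART, because it was among the genes with the largest excess in delta cells and its window also held the palindrome. Both are 120-base stretches of the RefSeq promoter windows on build GRCr8, read 5′ to 3′ along the strand of the gene, with TGACGTCA in capitals.
Sst: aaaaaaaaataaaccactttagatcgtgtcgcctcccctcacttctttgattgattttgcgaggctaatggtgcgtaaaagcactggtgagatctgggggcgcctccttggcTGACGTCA
Cartpt: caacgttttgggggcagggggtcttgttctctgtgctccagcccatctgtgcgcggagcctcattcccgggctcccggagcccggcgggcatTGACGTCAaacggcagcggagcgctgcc
The Sst stretch lies at chr11:90461436-90461555 on the plus strand, and its element spans bases 3 to 10 after the RefSeq start of the transcript. The Cartpt stretch lies at chr2:32991350-32991469 on the minus strand, with the element at bases -142 to -135 before the start. TGACGTCA, which reads the same on both strands, occurred in 612 of 33469 promoter windows of 300 bases (1.83%) and in 3 of 146 windows (2.05%) of the genes higher in delta cells described further on, namely those of Ahi1, Cartpt and Fstl4. The share among those genes was near that of all windows.

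The delta cells were deeply covered single cells for the most part. They held 515 to 40442 UMIs with a median of 14428, and 269 to 6665 genes with a median of 4076. Mitochondrial transcripts took a median of 3.07% of their UMIs and 21.4% at most. The median UMI number was 7064 in alpha cells, 3223 in PP cells and 1252 in beta cells, so the delta cells were the deepest of the 4 classes by median, and 19.6% of them had fewer than 3000 UMIs against 71.0% of beta cells. Only 2 delta cells carried a barcode that was also present in another library.

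Sst transcripts, which the rule used and which are therefore only described, took 2.90% to 38.8% of the UMIs of a delta cell, with a median of 12.8%. The number of Sst UMIs ran from 37 to 7601, with a median of 2127. By rat, the median share was 11.4% in young replicate 1, 25.3% in young replicate 2, 18.8% in old replicate 1, 19.4% in old replicate 2 and 10.4% in the 4 cells of HFHF-old replicate 1. The ranges of the rats overlapped, since single cells of young replicate 1 alone spanned 4.83% to 36.0%. The 3 members nearest to the limit held 2.90%, 4.23% and 4.83% Sst, and just outside the rule only 4 barcodes had Sst as leading hormone, no Ptprc and less than 1% Sst, the highest at 0.331%. A further 95 barcodes reached 1% Sst but were not delta cells. Of these, 27 fell to alpha, 33 to beta and 3 to PP cells by a higher share of that hormone, 23 had Ptprc UMIs and another leading hormone, 8 were led by Sst but held Ptprc UMIs, and 1 had no single leading hormone.

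Sst RNA was also found outside delta cells. Among Ptprc-positive barcodes, which should not express it, 7.94%, 40.8%, 12%, 2.48%, 6.95% and 0.00935% held at least 1 Sst UMI in the 6 rats, in the same order with HFHF-old replicate 2 at the end. Their median depths lay between 3331 and 10408 UMIs per barcode. The highest Sst share in a Ptprc-positive barcode was 19.7%, and the share in HFHF-old replicate 2, where no delta cell was found, reached 0.0348% at most. The 8 Ptprc-positive barcodes led by Sst had a median Sst share of 9.56%, and 5 of them held exactly 1 Ptprc UMI. Whether these were delta cells was not tested.

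Most delta cells held little of the other hormones. The second most abundant hormone took a median of 0.587% of UMIs, exceeded 1% in 17 cells, 3% in 5 cells and 9% in 2 cells. Both cells over 9% came from old replicate 2. They held 2867 and 4322 Ppy UMIs, the first of them with 2611 Gcg UMIs as well, and together they supplied 41.2% of that rat's delta UMIs outside the genes of the rule. A median delta cell held 3 Gcg, 12 insulin and 1 Ppy UMIs. Only 3 cells, all from young replicate 1, held more than 100 insulin UMIs.

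**Figure D1:**
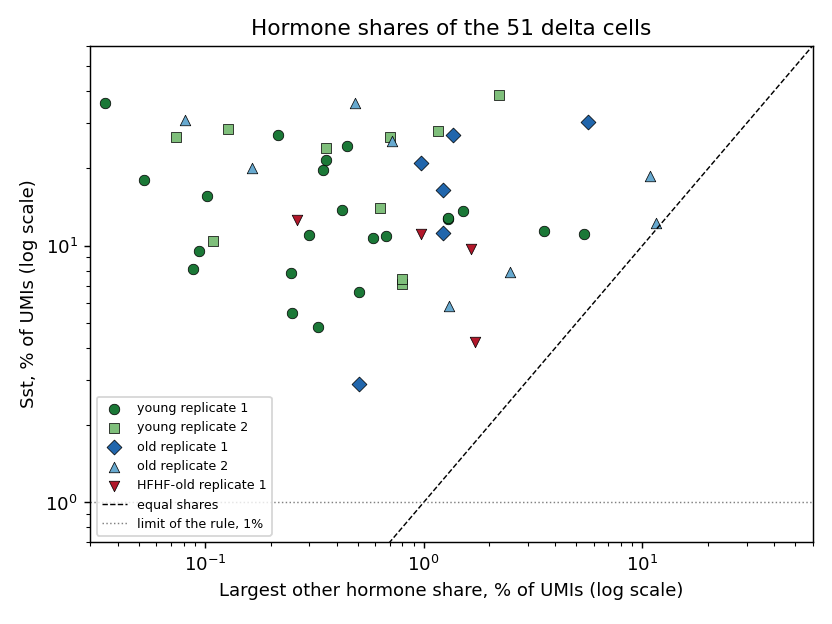
Sst share of UMIs (y axis, percent, log scale) against the largest other hormone share (x axis, percent, log scale) in each of the 51 delta cells, colored by rat. The dashed line marks equal shares and the dotted line the 1% limit of the rule; 2 cells of old replicate 2 lie near the dashed line and the lowest cell stands at 2.90% Sst.

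Peptide YY transcripts stood out from this low background of other hormones. Pyy, which shares ancestry with Ppy and whose product is best known from gut endocrine cells, took at least 0.2% of UMIs in 31 of the 51 delta cells. In 29 of these 31 cells fewer than 10 Ppy UMIs were present. The median in the 31 cells was 114 Pyy UMIs against 1 Ppy UMI, and the highest Pyy count was 393. The other 20 cells lay under the limit. Of the 41 delta cells with at least 3000 UMIs, 28 reached the limit and 13 did not, and 12 held 0 to 9 Pyy UMIs. The median depth was 17132 UMIs at or above the limit and 8906 below it, and the part of depth in this split was not tested.

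Cells with Pyy occurred in every rat that had delta cells, in 14 of 23 cells of young replicate 1, 4 of 10 of young replicate 2, 6 of 6 of old replicate 1, 5 of 8 of old replicate 2 and 2 of 4 of HFHF-old replicate 1. Summed over the delta cells, Pyy and Ppy came to 1181 and 13 UMIs in young replicate 1, 583 and 59 in young replicate 2, and 1054 and 5 in old replicate 1. The sums were 1218 and 7243 UMIs in old replicate 2, which holds the 2 mixed cells, and 430 and 8 in HFHF-old replicate 1. The ratio ran the other way in PP cells and Ptprc-positive barcodes of the same libraries, and it was not taken in alpha or beta cells. PP cells of these 5 rats held 0.0138 to 0.185 Pyy UMIs per Ppy UMI, and Ptprc-positive barcodes held 0.0107 to 0.169. Pyy and Ppy belong to the rule, so these values carry no test.

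**Figure D2:**
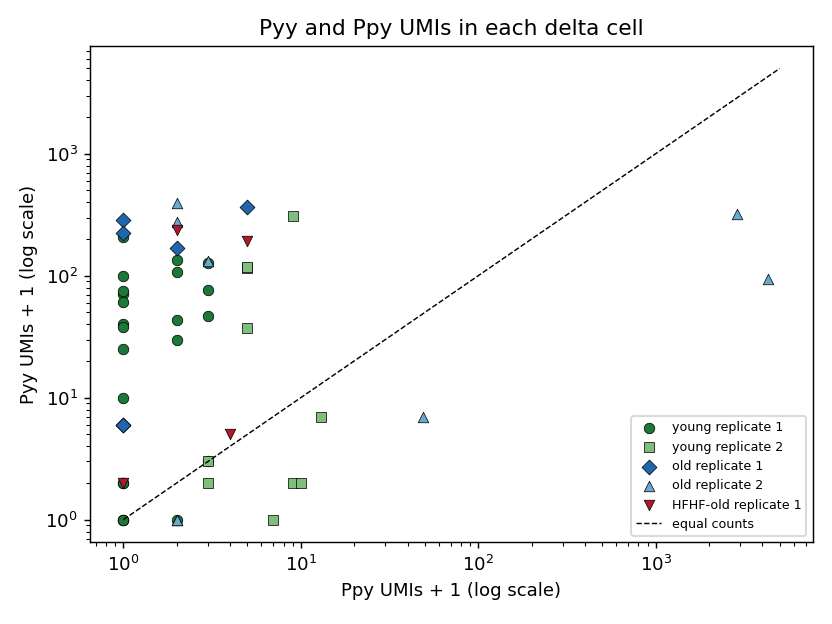
Pyy UMIs plus 1 (y axis, log scale) against Ppy UMIs plus 1 (x axis, log scale) in each delta cell, colored by rat, with the line of equal counts dashed. Cells with 20 or more Pyy UMIs mostly had fewer than 10 Ppy UMIs; the 2 points at the right are the cells of old replicate 2 with 2867 and 4322 Ppy UMIs.

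Iapp, which encodes islet amyloid polypeptide and is best known as a beta cell product, was present in delta cells. Insulin belongs to the rule, which keeps it low in delta cells and high in beta cells, so the ratios to insulin are a description only. All 41 delta cells with at least 3000 UMIs held Iapp, at 9 UMIs or more and up to 194 UMIs, and 37 of the 51 delta cells had more Iapp than insulin UMIs. The delta cells held 0.752, 2.92, 3.19, 1.05 and 1.29 Iapp UMIs per insulin UMI in the 5 rats. Beta cells held 0.001 to 0.00367 in these rats and Ptprc-positive barcodes 0.00126 to 0.00384. The Iapp level, in CPM (UMIs per 1000000 UMIs outside the genes of the rule, the scale of all levels given from here on), was 3714, 5348, 4978, 2495 and 3276 CPM in the delta cells. It was higher than in alpha cells by 3.38 (SE 0.36, edgeR adjusted p = 1.81e-05) and than in PP cells by 3.55 (SE 0.36, adjusted p = 1.65e-05) on the log2 scale, while the difference from beta cells was 0.60 (SE 0.33, adjusted p = 0.222). The beta cell sums held many barcodes with little insulin, 63.1% of them under 10%, and much acinar RNA, up to 103554 CPM in the young rats. The part of this in the last difference was not tested, nor was its part in the beta cell contrasts and list medians given further on.

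Genes outside the rule were compared between delta cells and the other 3 classes on UMI sums per rat, with the rat as a block. The comparison rested on the 2 rats with at least 10 delta cells, both of them young. A gene was called when all 3 contrasts passed a Benjamini-Hochberg adjusted p of 0.05 in edgeR's quasi-likelihood test and a 1.5-fold difference. Of 12102 genes tested, 186 were higher in delta cells than in each other class (1.54%) and 103 were lower (0.851%). With the rats that had at least 5 delta cells, 2 young and 2 old, 263 of 11680 genes were higher (2.25%) and 259 lower (2.22%); 163 genes were called higher in both fits, which is 87.6% of the 186 and 62% of the 263. For the lower genes 73 were shared, which is 70.9% of the 103 and 28.2% of the 259. Without the rat block, 35 genes were higher and 5 lower among the 12102, and the 35 were all within the 186. Among the delta cell markers and the genes that ranked first by fitted log2 difference, 15 higher and 10 lower, Hhex, Chrm4, LOC304725, Gabrg3, Krt80, Bmp3, Dlgap1 and the lower Rab27a kept all 3 contrasts without the block. Cartpt lost all 3 (adjusted p = 0.112 to 0.247), as did Calcb (0.0602 to 0.0749) and RGD1562029 (0.0554 to 0.141). Syt1 lost those with alpha and PP cells (0.0795 and 0.081) and Tacr3 the one with PP cells (0.0517). Shisal2b, Ecel1 and Sez6l lost those with alpha and PP cells and Shisa6 the one with alpha cells. Of those 10 lower genes, Col6a6, Slpi, Cuzd1, Atrnl1, Rcn3, AABR07062512.1 and Abcc9 lost all 3, at 0.0520 to 0.755. Lum and Fbln2 lost those with alpha and PP cells. The other genes described further on are not given one by one without the block.

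The order of the classes was then read in the 3 rats that the test of the young rats had not used. The delta cells had the highest level of the 4 classes for 165 of the 186 genes in old replicate 1 (88.7%, against 36.4% of all genes tested), for 163 in old replicate 2 (87.6%, against 37.0%) and for 159 in HFHF-old replicate 1 (85.5%, against 30.9%). For 132 genes, or 71.0%, the delta cells were highest in all 3 rats, as they were for 8.61% of all genes tested.

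Among the 4 genes named as markers of the cell type, Hhex was higher in delta cells than in the other classes in every rat. Its level was 369.6 in young replicate 1, 358 in young replicate 2, 665 in old replicate 1, 413 in old replicate 2 and 423 in HFHF-old replicate 1. No alpha, beta or PP sum of these rats exceeded 29.1, so the classes did not overlap. The log2 difference was 5.37 from alpha cells (SE 0.37, edgeR adjusted p = 3.27e-07), 4.10 from beta cells (SE 0.35, adjusted p = 1.43e-06) and 6.8 from PP cells (SE 0.46, adjusted p = 4.57e-07). Every one of the 41 delta cells with at least 3000 UMIs held a Hhex UMI. With each cell thinned to 1000 UMIs outside the rule genes, 36.2% of 47 delta cells held one (exact Clopper-Pearson 95% interval 22.7% to 51.5%). The same share was 0.448% in alpha, 1.56% in beta and 0.304% in PP cells with at least 10% of their leading hormone, and 2.35% in Ptprc-positive cells. Unthinned, 84.3% of the delta cells held a Hhex UMI. The interval pools the 47 cells of all rats, 21 of them from young replicate 1, and leaves out the spread between rats.

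Ghsr, the ghrelin receptor, was nearly undetected, with 3 UMIs in 3 of the 51 delta cells, and was too low to be tested. Ffar4, a receptor for long-chain fatty acids also known as GPR120, was present in delta cells at 85, 66, 108, 176 and 148 CPM. It exceeded the beta cell level by 2.21 on the log2 scale (SE 0.67, edgeR adjusted p = 0.029; 2.03 and adjusted p = 0.239 without the rat block) but not the levels in alpha cells (0.55, SE 0.59, adjusted p = 0.683) or in PP cells (-0.54, SE 0.57, adjusted p = 0.685).

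The wider list of 18 delta cell markers held 10 genes that passed the filter on low counts. Besides Hhex, 3 were higher than in all other classes, and none was lower, beside 1.54% higher among all genes. Frzb, a secreted antagonist of Wnt proteins, had levels of 310.4, 245, 216, 290 and 338 CPM in the delta cells, and exceeded alpha, beta and PP cells by 6.18, 4.15 and 7.26 on the log2 scale. Ptprz1, a receptor-type tyrosine phosphatase, exceeded them by 3.64, 5.15 and 3.89, and Casr, the calcium-sensing receptor, by 1.51, 4.60 and 1.78. The largest adjusted p of these 9 contrasts was 0.0394. Rbp4, often listed as a delta cell gene, was lower than in alpha cells by 2.40 and than in PP cells by 2.83 in log2 terms, with levels of 107 and 141 in the young delta cells against means of 581 in alpha and 828 in PP cells. The median log2 difference of the 10 genes was 1.49, 2.52 and 1.28 from alpha, beta and PP cells (1.51, 2.52 and 1.28 with genes at 0 UMIs set to their bound), and that of all genes tested was -0.15, -0.16 and -0.15.

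**Figure D3:**
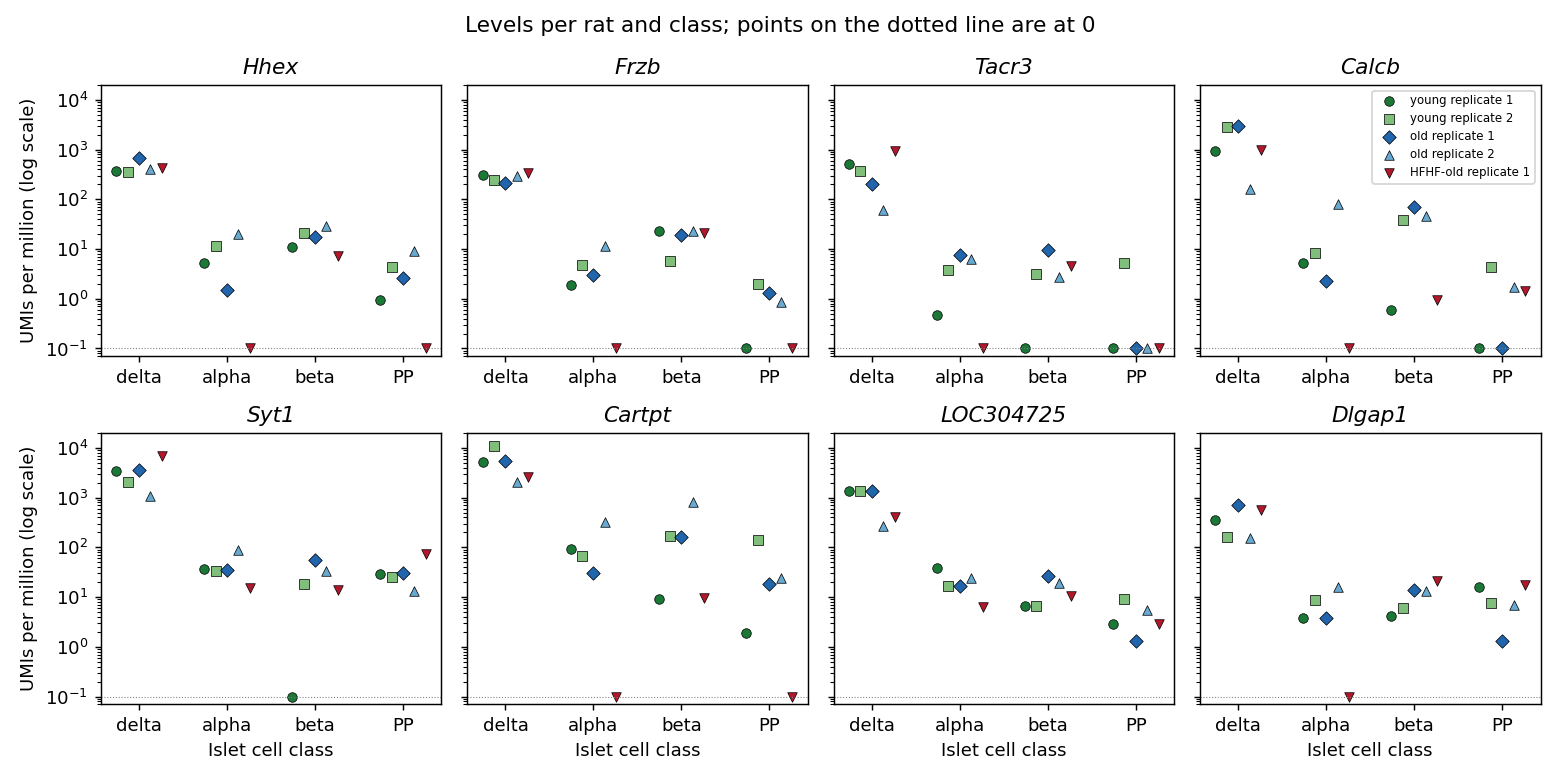
Levels of 8 genes called higher in delta cells (y axis, CPM outside the rule genes, log scale) in the UMI sum of each class (x axis) and rat. Each point is 1 rat, and points on the dotted line are at 0; Hhex lies between 358 and 665 in delta cells and at 29.1 or below elsewhere, and old replicate 2 has the lowest delta level of Tacr3, Calcb, Syt1, Cartpt and LOC304725.

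Ranked by the smallest of the 3 log2 differences, the first 15 of the 186 genes were Tacr3, Calcb, Syt1, Cartpt, Shisal2b, Chrm4, LOC304725, Gabrg3, Ecel1, Sez6l, Krt80, Shisa6, RGD1562029, Bmp3 and Dlgap1. Shisal2b, Ecel1, Sez6l, Krt80, Shisa6, RGD1562029 and Bmp3 were low even in delta cells, at 0 to 139 CPM in any rat. The other 8 are described by role.

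The neuropeptides formed 1 group, with 13 of the listed genes tested, 4 of them higher and none lower, beside 1.54% higher and 0.851% lower of all genes tested. Cartpt had the highest young mean of the 186 genes, at 5163, 10885, 5519, 2074 and 2599 CPM in the delta cells. Young means were 81.1 in alpha, 89.0 in beta and 72.3 in PP cells, and the log2 differences were 6.03 (SE 0.94), 6.5 (SE 0.98) and 7.13 (SE 1.01), with edgeR adjusted p of at most 0.00069. Beta cells held 9.07 and 169 CPM in the young rats and 163 in old replicate 1. In old replicate 2 they held 826 beside 2074 in delta cells, so the excess was much smaller in that rat. Among cells thinned to 1000 UMIs, 78.7% of delta cells held a Cartpt UMI (interval 64.3% to 89.3%), against 2.33% of alpha, 5.29% of beta, 1.67% of PP and 0.664% of Ptprc-positive cells. This interval too pools the cells of all rats and leaves out the spread between rats.

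Calcb, which encodes beta-calcitonin gene-related peptide, had delta levels of 949.8, 2896, 2953, 158 and 993 CPM. Its neighbor in function Calca, the gene of calcitonin and alpha-CGRP, had levels of 174, 396, 247, 325 and 148. In old replicate 2, Calcb stood at 80.8 CPM in alpha and 46.1 in beta cells, near its delta level of 158. In the young rats Calcb exceeded the alpha, beta and PP cells by 7.82, 6.12 and 9.42 on the log2 scale and Calca by 3.99, 4.13 and 3.60. The 2 genes are close in sequence, and the counting may have divided reads between them. Nucb2, the gene of the nesfatin-1 precursor, was high in all classes and higher in delta cells, with levels of 1238, 2377, 1515, 1379 and 2325 and log2 differences of 2.27, 2.29 and 1.81. The median log2 difference of the 13 neuropeptide genes was 1.91, 0.46 and 1.56 from alpha, beta and PP cells, and 2.27, 0.60 and 1.81 with genes at 0 UMIs set to their bound.

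Tacr3, the receptor of neurokinin B, ranked first of all genes, with delta levels of 517, 377, 201, 61.5 and 951 CPM. Young means in the other classes were at most 2.6, and the log2 differences were 7.68, 7.18 and 6.96 (SE 0.60 to 0.63). Chrm4, the inhibitory M4 muscarinic acetylcholine receptor, stood at 55.4, 28.3, 61.8, 87.9 and 21.1 against young means of 0.2 to 0.577 elsewhere. Its delta levels were low too, resting on 3 UMIs in young replicate 2 and 1 UMI in HFHF-old replicate 1. Of the 28 hormone and nutrient receptors tested, Chrm4 and Casr were higher and Gabbr2, a subunit of the GABA-B receptor, was lower, by 3.20, 1.93 and 2.85 in log2 terms, beside 1.54% higher and 0.851% lower of all genes. The Gabbr2 call ended with 4 rats, where the adjusted p against PP cells was 0.0513. The median log2 difference of the 28 receptors was -0.27, -0.48 and -0.05, near that of all genes. Glp1r, the GLP-1 receptor, had delta levels of 22.2, 94.3, 77.3, 43.9 and 106, higher than in alpha cells (5.49, adjusted p = 0.00128) and PP cells (6.73, adjusted p = 0.00254), with a difference from beta cells of -0.48 (adjusted p = 0.604).

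Ion channels and exocytosis genes also held members that were higher in delta cells. Of 34 glucose-sensing and ion channel genes tested, 4 were higher and none lower, beside 1.54% and 0.851% of all genes. These were Ryr3, a calcium release channel (5.17, 5.15 and 3.91 on the log2 scale from alpha, beta and PP cells), Cacna1h, a T-type calcium channel (4.75, 2.01 and 2.79), Gria2, a glutamate receptor subunit (1.83, 1.14 and 0.95), and Hadh, an enzyme of fatty acid oxidation that restrains insulin release (4.69, 1.28 and 4.51). Hadh was steady over the rats, at 998, 1056, 1113, 1046 and 1543, but its excess over all 3 classes was not called with 4 rats. The median of the 34 genes was 0.17, 1.38 and 0.28. Gabrg3, a GABA-A receptor subunit outside that list, had levels of 477, 132, 340.1, 158 and 1500.4.

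Syt1, the calcium sensor of fast vesicle release, had delta levels of 3419, 2028, 3617, 1089.5 and 6805 CPM and log2 differences of 6.11, 7.30 and 6.5 from alpha, beta and PP cells (SE 0.64 to 0.70). Cadps2, which primes dense-core vesicles, was higher by 4.09, 2.68 and 3.07. Rab27a, a small GTPase that docks granules, went the other way. It had 0 UMIs in the delta cells of 4 of the 5 rats and a level of 17.6 in old replicate 2, and against the floor of 3 UMIs over both young rats it was at least 8.19-fold, 5.20-fold and 7.50-fold lower than in alpha, beta and PP cells. These were the 3 called genes of 28 exocytosis genes tested, 2 higher and 1 lower beside 1.54% and 0.851% of all genes, and the median log2 difference of the list was 0.08, 0.83 and 0.16. Dlgap1, a scaffold protein of synapses, stood at 362, 160.3, 727, 158 and 571, and LOC304725, which has no given name, at 1345, 1377, 1391, 264 and 402.

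Of 10 prohormone processing genes none was called in all 3 contrasts, and their median log2 difference was 0.08, -0.23 and -0.18. Pcsk2, the convertase that cleaves prosomatostatin and proglucagon, stood at 6219.9, 7102, 6292, 5210.4 and 7840.1 in delta cells, with a difference of -0.27 from alpha cells (adjusted p = 0.787) and -0.02 from PP cells (adjusted p = 0.993). Pcsk1, the other main convertase, was higher than in alpha cells by 5.05 and than in PP cells by 1.61 on the log2 scale, and its difference from beta cells was -0.54 (adjusted p = 0.174). The list of granins and granule proteins had 14 genes tested. Nnat, a member of the list but not a granin, was higher, by 4.43, 2.66 and 3.33. Slc30a8, the granule zinc transporter ZnT8, was lower, beside 1.54% higher and 0.851% lower of all genes. Slc30a8 stood at 48, 113, 30.9, 132 and 106 in delta cells, with young means of 487 in alpha, 181 in beta and 386 in PP cells, and log2 differences of -3.12, -1.71 and -2.69. The median of the 14 genes was 0.37, 1.03 and 0.13.

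Among 22 islet transcription factors tested, Hhex and Rfx3 were higher than in all other classes and none was lower, beside 1.54% and 0.851% of all genes, and the median log2 difference was -0.78, 0.70 and -0.09. Rfx3 exceeded alpha, beta and PP cells by 1.40, 2.83 and 1.24 on the log2 scale. Pdx1, a factor of beta and delta cells, had delta levels of 118, 189, 186, 193 and 190.2. It was higher than in alpha cells by 5.02 (adjusted p = 5.39e-06) and than in PP cells by 2.51 (adjusted p = 0.00128), and its difference from beta cells was -0.13 (adjusted p = 0.831). Isl1, a pan-endocrine factor, exceeded beta and PP cells by 2.45 and 1.33. Mafa and Ucn3, both of mature beta cells, had 0 UMIs in the delta cells of every rat and Nkx6-1 had 2 UMIs in all.

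Of the 103 genes lower in delta cells, 19 belonged to some list of other cell types. These were 14 acinar genes, Dcn, Ccdc80 and Lum of fibroblasts and Cd74 and Fcer1g of macrophages. All 14 called genes of the 17 acinar genes tested were digestive enzymes or their partners, beside 0.851% lower of all genes. The median log2 difference of the 17 genes was -2.47, -4.19 and -2.08 from alpha, beta and PP cells, and 12 were called lower with 4 rats. The summed acinar level in delta cells was 1242, 6706, 2875, 887 and 9362 CPM. It was 3324, 44699.6, 9960.2, 2768 and 10074 in alpha cells, 11585, 103554, 152082, 16329.9 and 43626 in beta cells and 2148, 39672, 6304, 4529 and 11114 in PP cells, so delta cells were lowest in each rat and near alpha and PP cells in HFHF-old replicate 1. The other classes also held more barcodes with little RNA, as given above, and 63.1% of beta cells had less than 10% insulin. When alpha, beta and PP cells were limited to those with at least 10% of their hormone, 14 genes were lower in delta cells in the young rats and 68 were higher, of which 13 and 66 were among the 103 and the 186. With that limit in 4 rats, 36 of the 103 and 144 of the 186 were called. The part of RNA from other cells in these 103 calls was not tested.

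By fitted log2 difference, the first 10 lower genes were Col6a6, Rab27a, Slpi, Lum, Fbln2, Cuzd1, Atrnl1, Rcn3, AABR07062512.1 and Abcc9, all with 0 UMIs in the delta cells of both young rats. For such genes the fitted difference is no measure of size, and only a lower bound can be given. For AABR07062512.1 the bound against beta cells is 1.10-fold, under the limit of 1.5-fold. The call of Slpi ended with 4 rats, at an edgeR adjusted p of 0.241 against alpha and 0.169 against PP cells. Col6a6, a collagen chain, was at least 9.40-fold, 4.76-fold and 12.1-fold lower than in alpha, beta and PP cells in the young rats. In old replicate 2 it stood at 43.9 CPM in delta cells, beside 50.3 in alpha, 92.0 in beta and 65.4 in PP cells. Abcc9, the SUR2 subunit of potassium channels, was at least 1.80-fold, 6.04-fold and 2.26-fold lower and had 0 UMIs in all rats. Slc7a2 and Tm4sf4, 2 genes of the alpha cell list, were lower by 4.78, 3.17 and 3.55 and by 2.00, 2.44 and 3.86 on the log2 scale, but reached 281 and 219.7 in old replicate 2. Both calls ended with 4 rats, at an adjusted p of 0.0982 against PP cells for Slc7a2 and 0.323 against alpha cells for Tm4sf4. In the older rats the delta level was the lowest of the 4 classes for 93 of the 103 genes in old replicate 1 (90.3%, against 39.4% of all genes tested), 83 in old replicate 2 (80.6%, against 41.2%) and 70 in HFHF-old replicate 1 (68%, against 42.2%). For 51 genes, or 49.5%, it was lowest in all 3 rats, against 11.4% of all genes tested.

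None of the 8 oxidoreductase genes singled out in the study and none of the 25 unfolded protein response genes tested was called in delta cells, where 1.54% of all genes were called higher and 0.851% lower, so counts of 0 in lists of this size are near that background. The median log2 differences from alpha, beta and PP cells were -0.08, -0.10 and 0.04 for the former and 0.27, -0.44 and -0.08 for the latter. Of 30 antioxidant genes, Mt1, a metallothionein, was lower, at 37, 9.43, 0, 26.4 and 21.1, and 1 call in 30 is near the 0.851% of all genes. Sod1, the cytosolic superoxide dismutase, stood at 399, 396, 526, 562 and 423, with log2 differences of -0.04, 0.03 and -0.07. The study chose those 8 genes on these samples. Of 25 genes known to respond to cell dissociation, Dnaja1, Ier2, Junb and Zfp36 were lower in the young delta cells, beside 0.851% of all genes, and the median of the 25 genes was -1.38, -2.15 and -0.96. With 4 rats the calls of Ier2, Junb and Zfp36 ended (largest adjusted p = 0.689, 0.165 and 0.0502) and that of Dnaja1 held. Of these genes Junb, Ier2 and Zfp36 had their highest delta level in old replicate 2, at 1362, 351 and 228.

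Old replicate 2 stood apart from the other rats in its delta cells, which include the 2 mixed cells. Syt1 was at 128 CPM in the 2 mixed cells and 1762 in the other 6 cells, and Cartpt at 512 and 3166. Fos and Btg2, which respond rapidly to stimulation, were at 2753 and 2476 in the mixed cells and at 1389 and 896 in the others. Tacr3 and Calcb were low in both, at 64.0 and 59.7 for Tacr3 and at 149 and 164 for Calcb. Hhex was at 427 and 403.

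The effect of age on the number of delta cells could not be resolved. Delta cells were 1.95% of islet cells in young replicate 1 (exact Clopper-Pearson 95% interval 1.24% to 2.91%) and 0.297% in young replicate 2 (0.142% to 0.545%). They were 0.599% in old replicate 1 (0.220% to 1.30%), 0.282% in old replicate 2 (0.122% to 0.554%) and 0.225% in HFHF-old replicate 1 (0.0613% to 0.575%). HFHF-old replicate 2 had 0 of 8 islet cells, which allows a share of up to 37.5% when a count of 0 is read as up to 3 counts, and 36.9% by the exact interval. Intervals and limits cover counting error only. The measured share of young replicate 1 lay above that of every other rat, but its interval overlapped that of old replicate 1. The intervals of the other rats with islet cells in number overlapped each other.

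The share was 1.12% ± 1.17 (SD, n = 2) in young and 0.440% ± 0.225 (SD, n = 2) in old rats, with p = 0.667 in a two-sided exact permutation test. It was 0.112% ± 0.159 (SD, n = 2) in HFHF-old rats, with p = 0.333 against old rats in the same exact permutation test, and 0.333 is the smallest p that 2 rats against 2 allow. Without young replicate 1 the difference of old from young turned from -0.682 to 0.144 percentage points. With delta cells counted against alpha and PP cells alone, the difference of HFHF-old from old turned from -0.328 to 0.613 percentage points. Of the beta cells counted, 63.1% had under 10% insulin. With alpha, beta and PP cells at 10%, HFHF-old replicate 1 kept 246 of 1699 beta cells and all 4 delta cells. Its share was then no longer the lowest of the rats with delta cells. Old minus young became -1.36 percentage points with this limit and -0.863 with at least 3000 UMIs. HFHF-old minus old became -0.165 and -0.377. Over all barcodes kept, islet cells or not, delta cells were 0.131% and 0.0968% in the young, 0.0802% and 0.0487% in the old and 0.0320% in HFHF-old replicate 1, with 0 cells in HFHF-old replicate 2. On this denominator the groups did not overlap and no test was run, and it also moves with the share of islet cells in each library. A cell whose Sst RNA fell below the limit leaves the class, so fewer cells and less Sst RNA per cell cannot be told apart.

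The expression of delta cells was compared between old and young rats on the 2 rats of each group with at least 5 delta cells. Of 2486 genes tested, 1 was higher in old rats (0.0402%) and 0 were lower (0%) at an adjusted p of 0.05 in edgeR. An unadjusted p under 0.05 was found for 77 genes, 40 higher and 37 lower. That is a smaller share of the 2486 than this limit would pass with no age effect. DESeq2 called none. The gene called was RT1-A1, a rat MHC class I gene that presents peptides to cytotoxic T cells. Its level was 40.7 and 28.3 in young replicates 1 and 2, 386 and 219.7 in old replicates 1 and 2 and 21.1 in HFHF-old replicate 1, from 11, 3, 25, 25 and 1 UMIs. The old rats lay above the young rats without overlap, by 2.95 on the log2 scale (SE 0.52, adjusted p = 0.0197), and the HFHF-old rat lay with the young. The call ended without old replicate 1 (2.54, adjusted p = 0.821), without young replicate 1 (3.31, adjusted p = 0.0975), with DESeq2 (3.03, adjusted p = 0.262) and with a leading hormone at least 5 times each other (3.55, adjusted p = 0.066). That last definition left old replicate 2 with 4 delta cells, so the rat dropped out, and there, as without old replicate 1 or young replicate 1, a lone rat was assumed to vary like the other group.

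RT1-A1 was also at its highest in the 2 old rats in each other class. Its level was 49.7, 72.7, 264, 293 and 34.2 CPM in alpha cells, and 32.5, 82.3, 262, 350.2 and 43.1 in PP cells. It was 186, 256, 530, 286 and 72.6 in beta cells. Ptprc-positive barcodes had the highest levels, at 363, 270.1, 1305, 1148 and 192. MHC class I genes are near-identical copies of each other and differ between individual haplotypes, so reads may be assigned unevenly between rats, and the part of this in the difference was not tested.

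**Figure D4:**
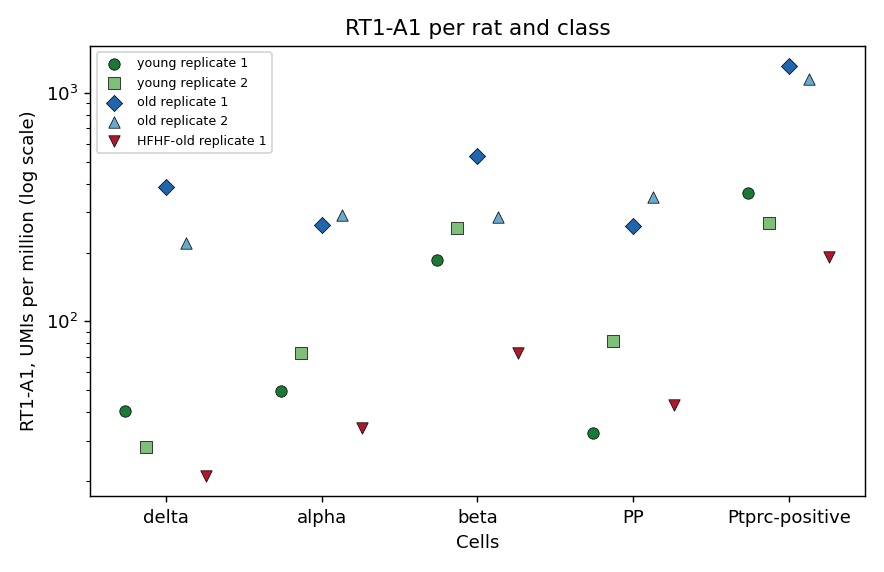
RT1-A1 level (y axis, CPM outside the rule genes, log scale) in the UMI sum of each cell class (x axis), with 1 point per rat. In delta cells the 2 old rats stand at 386 and 219.7 and the other 3 rats at 40.7 or below, and in each other class the old rats also stand highest.

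The other age differences in delta cells did not pass the adjustment. Next in order of p was Ccnd1, cyclin D1, at 188 and 226 in the young rats, 15.5 and 35.1 in the old rats and 42.3 in HFHF-old replicate 1 (log2 difference -2.87, SE 0.61, adjusted p = 0.110). Tacr3 differed by -1.93 (SE 0.52, adjusted p = 0.608). By list, the 12 dissociation response genes tested had a median log2 difference of 0.58 with 10 positive and 2 negative values, and the 8 acinar genes a median of -0.85 with 1 positive and 7 negative. The part of these in the other differences was not tested. The 13 genes tested of the granin and granule list had a median log2 difference of -0.30 with 1 positive and 12 negative values. The 11 islet transcription factors had a median of 0.35 with 10 positive and 1 negative. The 128 of the 186 delta-high genes that could be tested had a median of -0.33, with 39 positive and 89 negative, beside a median of 0.00 over all 2486 genes. These genes were picked as high in the same young rats, so a negative median is no independent result. No member of these lists passed the test.

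The effect of the HFHF diet on delta cell expression could not be tested, because HFHF-old replicate 1 had 4 delta cells and HFHF-old replicate 2 none. The 4 cells are described by their values. They held Hhex at 423, Syt1 at 6805, Tacr3 at 951 and Gabrg3 at 1500.4, the last 3 being the highest delta levels of any rat, and Cartpt at 2599, the second lowest after old replicate 2. At this depth 1 UMI is worth 21.1 CPM in that rat.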

How the data were processed

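Single-cell libraries of 6 rat pancreases were analysed as the authors deposited them. The deposited values are whole-number counts of UMIs per gene and barcode, which the authors made with Cell Ranger (5.0.0 in the file headers, while the methods of the study name another release) on Rnor_6.0, per the processing notes of the submitters. The files list 32883 genes by Ensembl identifier and symbol, without coordinates.

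Barcodes with at least 200 genes and at most 25% of UMIs in mitochondrial (Mt-) genes were kept. No doublet caller was run, and alternatives asked for a leading hormone at 5 times each other or left out the top 1% of gene number. Libraries shared 20 to 69 barcodes per pair. The members, gene lists and tests were chosen with earlier results of these data known. UMIs were summed per rat and class without Sst, Gcg, Ins1, Ins2, Ppy, Pyy and Ptprc and tested with edgeR 4.0.16 (TMM, glmQLFTest, filterByExpr), with DESeq2 1.42.0 as an alternative. Classes of 1 rat were blocked by rat. A rat entered with at least 10 delta cells. No old rat reached 10, so the alternative of 5 gave the age values. SE is the absolute log2 difference over the root of F. The class fit had 3 residual degrees of freedom. Rats are the replicates. In the fits blocked by rat, a p measures how much the differences between classes varied between these animals. In the unblocked age fit it measures the spread between animals of a group.

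Named genes were the 4 markers, the first 15 higher and 10 lower genes by the smallest of the 3 log2 differences, called list members and up to 4 further members per list of highest level. Genes that the text names outside this rule were chosen after their values were seen. Promoters came from RefSeq windows of 250 bases before and 50 after each start on GRCr8; 127 of the 186 genes had one.

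The procedure was tested on simulated data with 2-fold, 4-fold and 8-fold differences. In the class comparison of 11818 genes it recovered 0%, 13.4% and 62.1% of them, and in the age comparison of 2394 genes 13.4%, 71.6% and 86.4%, with 2 unchanged genes called. In the difference of age changes between delta and alpha cells over 9400 genes it recovered 0%, 0% and 13.6%, with 1 unchanged gene called. Depth limited the precision, since 1 UMI was worth 3.70 to 21.1 CPM in the delta sums. Apart from the set changes, the simulation gave every class and rat the same gene means, with a fixed dispersion. Only genes with high enough mean counts were changed. Its recovery may not hold for genes with few UMIs or for the spread in these rats.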

Additional observations from a re-analysis of the deposited data

Results flagged for a closer look

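The change from young to old was compared between classes in the 2 young and 2 old rats with at least 5 delta cells. It was tested by the interaction of class and group in edgeR, at an adjusted p of 0.05 and a 1.5-fold difference. Between delta and alpha cells it differed for 18 of 9668 genes tested (4 higher and 14 lower). Between delta and beta cells it differed for 13 of 10507 (3 higher and 10 lower). DESeq2 called 0 genes in either comparison. Both comparisons use the same delta sums, and 3 genes were in both, namely Calcb, Il1rapl2 and Tacr3. Of the 18 and the 13 genes, 8 and 6 were among the 186 picked as high in the same young delta cells, Calcb and Tacr3 among them. A fall with age in such genes is no independent result.

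Tacr3 in delta cells went from 517 and 377 CPM in the young rats to 201 and 61.5 in the old rats. In alpha cells it went from 0.482 and 3.84 to 7.61 and 6.17, a difference of changes of -3.90 on the log2 scale (SE 0.64, edgeR adjusted p = 5.43e-06, DESeq2 adjusted p = 0.442). These alpha levels rested on 2, 13, 10 and 20 UMIs, the first under the floor of 3 UMIs. The change of Tacr3 in delta cells alone was -1.93 (SE 0.52, edgeR adjusted p = 0.608). Calcb in delta cells was at 949.8 and 2896 in the young rats and at 2953 and 158 in the old rats, so the groups overlapped, and the difference of changes against beta cells was -3.40 (SE 0.72, edgeR adjusted p = 0.0123). The beta sums of these rats held 1, 276, 205 and 236 Calcb UMIs, the first under that floor. Il1rapl2 had 7 and 18 UMIs in the young delta sums and 0 in both old sums, while alpha cells went from 17.1 and 16.6 to 130.2 and 84.2 CPM. Old replicate 2, whose delta sum includes the 2 cells with much Ppy RNA, had the lowest Tacr3 and Calcb levels of the 4 rats. The levels were low in its other 6 delta cells too, with Tacr3 at 59.7 CPM beside 64.0 in the 2 mixed cells and Calcb at 164 beside 149.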

How the results depend on the processing

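The number of genes higher in delta cells was 186 and was 163 to 222 with DESeq2, RLE size factors, no filter on low counts, the rule genes kept in library sizes, a leading hormone at least 5 times each other or the top 1% of gene number left out. It was 35 without the rat block, 79 with the leading hormone of every class at least 5% of UMIs, 68 with alpha, beta and PP cells at 10%, and 320 with at least 5 cells and DESeq2. The number of lower genes was 103 and became 65 with DESeq2, 215 with no filter, 259 with at least 5 cells, 5 without the rat block, 13 with that 5% limit, which took young beta cells from 542 to 131 and from 2418 to 1427 but left out 1 young delta cell, 14 with the 10% limit, 237 with at least 5 cells and DESeq2 and 209 with at least 5 cells and the 10% limit. With at least 5 cells and each of the 4 rats left out in turn, 155 to 241 genes were higher and 124 to 162 lower (162 without young replicate 1 and 159 without old replicate 2). With at least 5 cells and 3000 UMIs, 148 genes were higher and 77 lower, in 3 rats since old replicate 1 had 4 such delta cells, and these included 127 of the 186 and 46 of the 103. The alternatives with 5 cells and another choice, the 10% limit, the limit of 3000 UMIs and all alternatives of the age comparison beyond 5 cells were chosen after seeing the data.

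For age, the 1 gene higher in old rats became 0 with DESeq2, with a leading hormone at least 5 times each other and with the replicate block, 8 without a filter and 14 with at least 3000 UMIs, and the 0 lower genes became 8 and 16 with the last 2. The 5-times rule left old replicate 2, and the 3000 UMI limit old replicate 1, with 4 delta cells, so each of these fits also lost an old rat. Leaving out 1 rat, with the lone rat of that group assumed to vary like the other group, gave 0 to 4 higher and 0 to 10 lower genes. Rat numbers name different animals, so the replicate block, with 0 calls, tests no pairing. Of the differences in the change with age, the 4 higher and 14 lower genes against alpha cells became 0 and 0 with DESeq2 and 0 to 5 and 3 to 11 with 1 rat left out. The 3 higher and 10 lower genes against beta cells became 0 and 0 with DESeq2 and 0 to 11 and 2 to 28 with 1 rat left out, and 5 lower genes with RLE size factors. The delta share of islet cells in old minus young rats, -0.682 percentage points, ran from -1.51 to 0.144 with 1 rat left out, and HFHF-old minus old, -0.328, from -0.487 to -0.169. It reversed to 0.144 without young replicate 1, and to 0.613 for HFHF-old minus old with alpha and PP cells alone beside delta cells. Single genes kept their side of the threshold in 1152 alternatives, lost the call in 213 and gained it in 1. At least 20 cells, at least 10 cells with 3000 UMIs, and leaving out a young rat gave no class comparison, and the diet comparison could not be fitted. The cause of these differences was not tested.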
